A study of Rattus norvegicus with 3 samples.

Results

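The nuclear genes of the respiratory chain and ATP synthase were followed in poly(A) RNA of adult Sprague-Dawley rats. They were chosen by symbol: names that begin with Nduf, Uqcr or Atp5, names that begin with Cox and a digit from 4 to 8, and Sdha, Sdhb, Sdhc and Sdhd. This gave 82 genes in 85 entries, out of 16629 genes and regions in 17089 entries. Of the 82, 34 are subunits of complex I (7 core, 27 accessory), 4 of complex II, 7 of complex III, 16 of complex IV and 14 of ATP synthase, and 7 are assembly factors or share only the letters. One of these 7, Cox4nb, is now called Emc8 and belongs to a membrane complex of the endoplasmic reticulum, and another, Cox6c1, is now annotated as the pseudogene Cox6c-ps1. Ndufa4, whose description names NADH dehydrogenase, was counted in complex IV, as was Cox7a2l.

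The study set the pineal gland by night and by day against each other and against other tissues. The pineal night library came from zeitgeber time 19 (hours after lights on), in the dark, and the pineal day library from zeitgeber time 7. The mixed library, also from zeitgeber time 7, was made from RNA of 15 tissues in equal amounts. From the nervous system these were hypothalamus, cortex, spinal cord, midbrain, cerebellum, hindbrain and retina, and beside them stood heart, skeletal muscle, kidney, liver, adrenal gland, lung, pituitary and small intestine. All rats lived on a cycle of 14 h light and 10 h dark, the labels name no allele or treatment, and the sources used here do not give the number of animals behind each library.

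Each group had 1 library. No difference below has a replicate check or a p-value, and sizes are described only. Levels are in FPKM, fragments counted per kilobase of a transcript and scaled to library size. Ratios are log2 ratios of FPKM + 1, and folds named by a threshold are on that scale. Each comparison took in the genes at 1 FPKM or more in either library, which were 78 of the 82. The scale of FPKM + 1 understates differences between low values. In bulk tissue, fewer cells of a type and less RNA per cell cannot be told apart. Night against mixed and day against mixed share the mixed library, and the day library enters both night against day and day against mixed.

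The respiratory chain passes electrons from NADH (complex I) and succinate (complex II) through ubiquinone, complex III and cytochrome c to oxygen at complex IV. Complexes I, III and IV move protons out of the mitochondrial matrix, and ATP synthase uses their return to make ATP. Several small subunits of complex IV exist as alternative isoforms, among them forms typical of heart and skeletal muscle. The pineal gland secretes melatonin by night, and its main cell, the pinealocyte, is a neuroendocrine cell related to photoreceptors. Subunits encoded in mitochondrial DNA are not analysed here.

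As a check on the tissue labels, 6 pinealocyte markers (Tph1, Asmt, Aanat, Crx, Gnat2 and Chrnb4) summed to 6703 FPKM by night, 6290 FPKM by day and 40.1 FPKM in the mixed tissues. Most of the pineal sums was Tph1, with 4245 FPKM by night and 4665 FPKM by day, so they do not separate night from day. Of the 6, 3 were higher and 3 lower by night. Only Aanat was at least 2-fold apart, with 762 FPKM by night and 5.34 FPKM by day. The 7 markers of striated muscle summed to 2.41 FPKM by night, 2.00 FPKM by day and 3366 FPKM in the mixed tissues. Depth was inferred from the smallest values of 1306 models of olfactory, vomeronasal and trace amine receptors. Of these models, 6 by night, 24 by day and 28 in the mixed tissues had values high enough to use. One fragment per kilobase corresponded to 0.189 FPKM by night, 0.114 FPKM by day and 0.104 FPKM in the mixed tissues, so the night library held about 60.5% of the depth of the day library and the mixed library 109%. The night value rests on 4 models, against 20 by day and 21 in the mixed tissues. For an assumed transcript of 0.5 kb, the exact Poisson 95% interval around 100 FPKM ran from 88.3 to 113 by night, from 90.8 to 110 by day and from 91.2 to 109 in the mixed tissues. A floor of 3 fragments on such a transcript corresponds to 1.13 FPKM by night, 0.686 FPKM by day and 0.626 FPKM in the mixed tissues. At a count of 0, the exact Poisson 95% interval reached 1.39 FPKM by night, 0.843 FPKM by day and 0.770 FPKM in the mixed tissues. These bounds cover counting error only.

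Many of the genes were among the most abundant transcripts of all 3 libraries. Together they made up 8187 FPKM by night, 8531 FPKM by day and 9565 FPKM in the mixed tissues, or 3.82% of all FPKM by night, 4.07% by day and 3.88% in the mixed tissues. Their median level was 65.3 FPKM by night, 65.6 FPKM by day and 89.7 FPKM in the mixed tissues, where the median over all genes was 2.00 FPKM by night, 2.29 FPKM by day and 4.86 FPKM in the mixed tissues. Of the 82 genes, 51 stood among the 1000 most abundant genes by night, 54 by day and 59 in the mixed tissues, and 24 genes by night, 28 by day and 37 in the mixed tissues reached 100 FPKM.

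**Figure D1:**
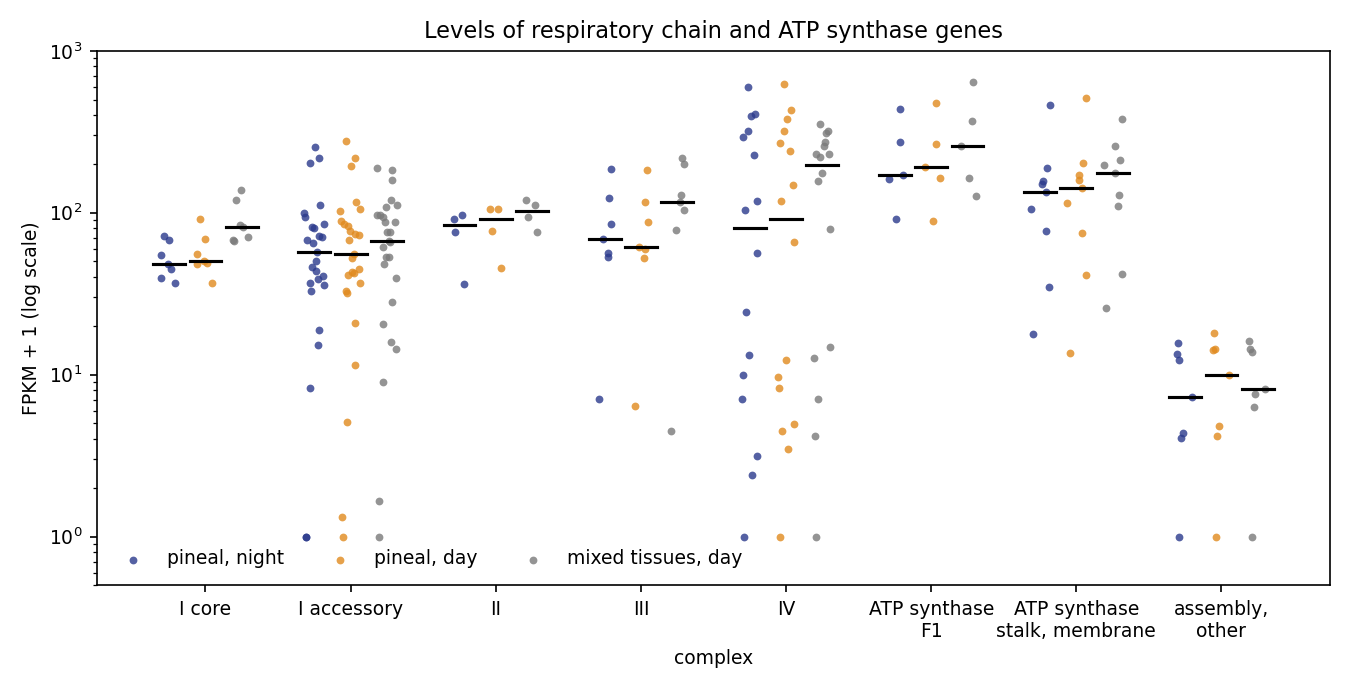
FPKM + 1 (log axis) of each of the 82 genes by complex, with the pineal night library, the pineal day library and the mixed tissues side by side; each point is 1 gene and each bar the median of its group. Medians of the F1 part of ATP synthase (171 FPKM by night, 191 FPKM by day and 259 FPKM in the mixed tissues) lie above those of the core of complex I (47.3 FPKM by night, 49.2 FPKM by day and 80.4 FPKM in the mixed tissues), and complex IV spreads from 0 to 624 FPKM by day.

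Levels differed between complexes. Complex IV summed to 2559 FPKM by night, 2628 FPKM by day and 2631 FPKM in the mixed tissues, and the 14 ATP synthase subunits to 2448 FPKM by night, 2604 FPKM by day and 3074 FPKM in the mixed tissues. Of the complex IV sum, Ndufa4 made up 290 FPKM by night, 268 FPKM by day and 230 FPKM in the mixed tissues. Complex I, with the most genes, summed to 2259 FPKM by night, 2350 FPKM by day and 2560 FPKM in the mixed tissues. Complex III reached 573 FPKM by night, 561 FPKM by day and 842 FPKM in the mixed tissues and complex II 296 FPKM by night, 329 FPKM by day and 397 FPKM in the mixed tissues. The 7 assembly factors and other matches were far lower, with sums of 51.1 FPKM by night, 59.8 FPKM by day and 60.7 FPKM in the mixed tissues.

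Single genes carried much of these sums. Cox8a, a small membrane subunit of complex IV, was the highest of the 82 genes in the pineal gland, with 592 FPKM by night and 624 FPKM by day, against 220 FPKM in the mixed tissues. It ranked 20 among all genes by night, 17 by day and 104 in the mixed tissues. The next were Atp5i (now Atp5me), a membrane subunit of ATP synthase, with 461 FPKM by night, 509 FPKM by day and 376 FPKM in the mixed tissues, and Atp5b (now Atp5f1b), its catalytic beta subunit, with 434 FPKM by night, 478 FPKM by day and 643 FPKM in the mixed tissues. Atp5b was the highest of the genes in the mixed tissues. Cox4i1, the common form of complex IV subunit 4, had 407 FPKM by night, 431 FPKM by day and 318 FPKM in the mixed tissues, and Cox7c, another small complex IV subunit, 393 FPKM by night, 378 FPKM by day and 259 FPKM in the mixed tissues.

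The promoter windows of 6 genes show what sequence stands upstream of the 4 most abundant of the genes in the pineal gland (Cox8a, Atp5i, Atp5b, Cox4i1), of the gene with the largest night to day ratio (Cox7a2), and of the muscle isoform Cox8b. Each runs from 250 bases before to 50 bases after the RefSeq gene start on GRCr8, 5′ to 3′ on the strand of the gene. Capitals mark matches, on either strand, to a motif of NRF1 (a palindrome, GCGCATGC followed by GC), GABPA (CCGGAAG, or CTTCCGG on the opposite strand) or YY1 (AAGATGG, or CCATCTT on the opposite strand), factors known from mammals to act on promoters of respiratory genes. The windows are chr1:213833574-213833873 (Cox8a, minus strand), chr14:1464610-1464909 (Atp5i, plus strand), chr7:1099808-1100107 (Atp5b, plus strand), chr19:65630133-65630432 (Cox4i1, plus strand), chr8:89601100-89601399 (Cox7a2, minus strand) and chr1:205408224-205408523 (Cox8b, minus strand).
Cox8a: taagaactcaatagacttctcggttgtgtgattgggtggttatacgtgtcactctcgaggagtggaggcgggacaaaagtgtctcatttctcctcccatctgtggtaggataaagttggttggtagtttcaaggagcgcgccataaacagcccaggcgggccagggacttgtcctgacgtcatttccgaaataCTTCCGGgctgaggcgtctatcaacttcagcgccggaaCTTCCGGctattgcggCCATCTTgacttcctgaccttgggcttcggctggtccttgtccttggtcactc
Atp5i: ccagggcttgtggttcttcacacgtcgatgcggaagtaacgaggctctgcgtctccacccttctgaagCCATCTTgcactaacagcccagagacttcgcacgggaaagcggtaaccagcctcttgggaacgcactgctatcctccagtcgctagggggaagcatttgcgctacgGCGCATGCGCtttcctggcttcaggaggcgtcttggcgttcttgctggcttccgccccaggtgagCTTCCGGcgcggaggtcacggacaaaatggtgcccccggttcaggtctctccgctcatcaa
Atp5b: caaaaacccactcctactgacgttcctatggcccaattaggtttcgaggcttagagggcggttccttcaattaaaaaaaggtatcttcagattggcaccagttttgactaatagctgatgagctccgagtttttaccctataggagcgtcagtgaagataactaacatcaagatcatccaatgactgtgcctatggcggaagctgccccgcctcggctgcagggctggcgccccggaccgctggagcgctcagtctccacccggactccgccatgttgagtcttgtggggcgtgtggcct
Cox4i1: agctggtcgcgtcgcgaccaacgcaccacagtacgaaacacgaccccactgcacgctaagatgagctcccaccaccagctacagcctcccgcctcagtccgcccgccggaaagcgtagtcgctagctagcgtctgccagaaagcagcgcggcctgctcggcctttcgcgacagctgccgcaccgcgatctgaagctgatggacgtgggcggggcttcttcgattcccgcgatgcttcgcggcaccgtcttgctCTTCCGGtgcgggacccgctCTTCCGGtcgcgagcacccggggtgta
Cox7a2: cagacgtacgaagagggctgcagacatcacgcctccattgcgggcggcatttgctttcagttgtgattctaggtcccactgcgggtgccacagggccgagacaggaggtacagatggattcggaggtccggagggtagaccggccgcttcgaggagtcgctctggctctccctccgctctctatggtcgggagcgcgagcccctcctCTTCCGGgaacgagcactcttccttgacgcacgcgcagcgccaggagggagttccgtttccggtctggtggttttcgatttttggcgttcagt
Cox8b: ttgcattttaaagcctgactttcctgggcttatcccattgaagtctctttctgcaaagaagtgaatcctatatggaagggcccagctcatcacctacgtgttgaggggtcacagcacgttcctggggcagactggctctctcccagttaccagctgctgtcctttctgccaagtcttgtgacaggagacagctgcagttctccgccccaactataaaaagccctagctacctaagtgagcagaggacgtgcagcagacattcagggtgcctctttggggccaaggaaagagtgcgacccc

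The Atp5i window held all 3 motifs, with the NRF1 motif beginning at position -76, the YY1 motif at -182 and the GABPA motif at -11 relative to the start. Cox8a held the GABPA motif at -57 and -19 and the YY1 motif at -3. Cox4i1 held the GABPA motif at 3 and 23, Cox7a2 held it at -43, and the Atp5b and Cox8b windows held none of these letters. Among the 69 genes with a window in the RefSeq table, 21 held the GABPA motif (30.4%, against 13.0% of the windows of 13516 genes of the deposited table), 14 the YY1 motif (20.3% against 7.43%) and 5 the NRF1 motif (7.25% against 1.35%). The shorter NRF1 motif without those last bases, GCGCATGC, which lies inside the full motif, was in 10 windows (14.5% against 3.79%). The 5 with the full motif were Atp5g2, Atp5i, Atp5o, Ndufa11 and Ndufaf4. Atp5i and Ndufa6 each held all 3 kinds of motif, Ndufa6 with the shorter NRF1 motif only. These matches are letters in a window and were not tested for binding.

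By night, the genes as a group stood within a narrow band around their day levels. Of the 78 genes compared, 65 lay within 1.25-fold of their day value (83.3%), against 56.7% of the 9826 genes compared. Among genes that reached 20 FPKM in either library, 56 of 62 did (90.3%), against 60% of 2776. The median ratio was -0.06, beside -0.11 for all genes compared. In direction, 26 genes were higher by night (38.2% of all genes were) and 52 lower (61.8% of all genes), and with ratios centred on the median of all genes the split turned to 48 above and 30 below. One gene, Cox7a2, was at least 2-fold higher (4.18% of all genes) and none was at least 2-fold lower (2.11% of all genes).

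**Figure D2:**
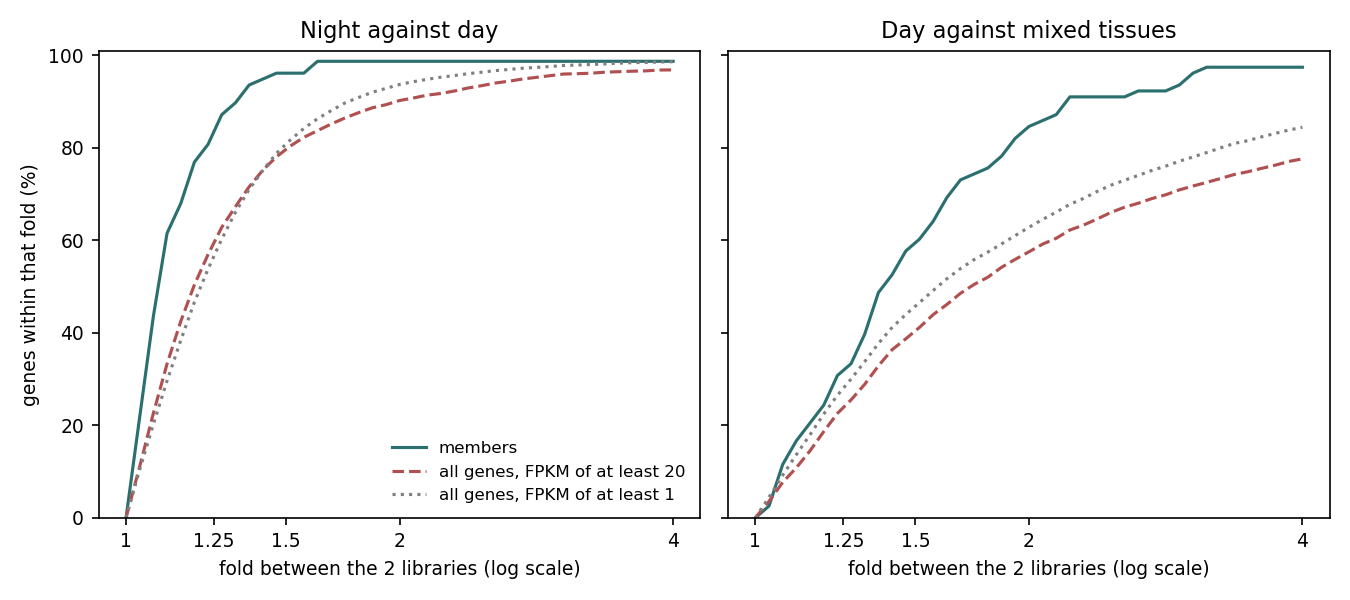
Share of genes (%) whose FPKM + 1 lay within a given fold (log axis) between the libraries, for night against day (left) and day against mixed tissues (right); lines show the respiratory genes compared, all genes that reached 20 FPKM and all genes that reached 1 FPKM. At 1.25-fold the line of the respiratory genes stands at 83.3% for night against day and at 30.8% for day against mixed tissues, where all genes stand at 56.7% and 28%.

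Complex I differed little between night and day. Its sum was 2259 FPKM by night and 2350 FPKM by day, and the median ratio was -0.06 for the 7 core subunits and -0.03 for the 25 accessory subunits compared. Among the core, Ndufv1, which binds NADH, had 47.3 FPKM by night and 49.2 FPKM by day, and Ndufs1, which carries iron-sulfur clusters, had 53.6 FPKM by night and 54.8 FPKM by day. Among accessory subunits, Ndufa12 had 252 FPKM by night and 194 FPKM by day (0.38), and Ndufb10 was lower, with 203 FPKM by night and 275 FPKM by day (-0.44). Ndufb3 was at least 1.5-fold higher, with 7.21 FPKM by night and 4.14 FPKM by day (0.68), where the counting intervals for 0.5 kb overlapped (4.35 to 11.3 and 2.46 to 6.53 FPKM). Of all genes, 8.18% were higher by 1.5-fold or more by night and 11% lower by as much.

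Complexes II and III stayed close as well. Complex II is also the succinate dehydrogenase of the citric acid cycle. All 4 of its subunits were somewhat lower by night (61.8% of all genes were lower). Sdha, the flavoprotein, had 90.1 FPKM by night and 104 FPKM by day. Sdhb, the iron-sulfur subunit, had 95.5 FPKM by night and 104 FPKM by day. Of the membrane anchors, Sdhc had 75.3 FPKM by night and 76.3 FPKM by day, and Sdhd 35.5 FPKM by night and 44.4 FPKM by day. In complex III, 5 of 7 genes were higher by night (38.2% of all genes were), none by 1.25-fold, with a median ratio of 0.09. Uqcrc1 and Uqcrc2, its core proteins, had 83.7 and 55.1 FPKM by night, against 86.3 and 51.4 FPKM by day, and Uqcrfs1, the Rieske iron-sulfur protein, had 52.6 FPKM by night and 58.7 FPKM by day.

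Cox7a2 was the exception. The gene encodes the widely expressed isoform of complex IV subunit 7a and lies at chr8:84813292-84817390 (rn4, as are the gene positions that follow). It had 23.4 FPKM by night, 3.50 FPKM by day and 6.09 FPKM in the mixed tissues. The night level was 6.69 times the day level (log2 ratio of FPKM + 1 of 2.44) and 3.84 times the mixed level, so the night library stood apart from both others. For 0.5 kb, counting intervals ran from 17.9 to 30.0 FPKM by night, from 1.97 to 5.74 FPKM by day and from 4.08 to 8.74 FPKM in the mixed tissues, with no overlap between night and either other library. RefSeq names 2 copies of Cox7a2 (pseudogenes or like genes). The sources used here do not say how reads that map to several places were counted, so its level is uncertain. Its share of the summed FPKM of Cox7a2 and Cox7a2l, which encodes a related factor that joins complexes III and IV, was 29.6% by night, 5.13% by day and 7.22% in the mixed tissues.

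The other 14 genes of complex IV compared, and ATP synthase, lay nearer to their day levels. Cox4i2, the isoform of subunit 4 known from lung and from low oxygen, was the only gene at least 1.5-fold lower by night, with 2.16 FPKM against 3.98 FPKM by day (-0.65). Its counting intervals overlapped (0.771 to 4.79 and 2.33 to 6.33 FPKM). Cox8b had 1.41 FPKM by night and 2.47 FPKM by day, Cox5a 6.08 FPKM by night and 8.70 FPKM by day, and Cox5b 116 FPKM by night and 147 FPKM by day. In ATP synthase, the 5 subunits of F1, the catalytic head with its rotor, had a median ratio of 0.04, and the 9 of the stalks and membrane part one of -0.11. Atp5a1 (now Atp5f1a), the alpha subunit, had 274 FPKM by night and 263 FPKM by day. The largest ratio in ATP synthase was that of Atp5g1 (now Atp5mc1), 1 of 3 genes for the proton-carrying subunit c, with 16.7 FPKM by night and 12.7 FPKM by day (0.38).

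**Figure D3:**
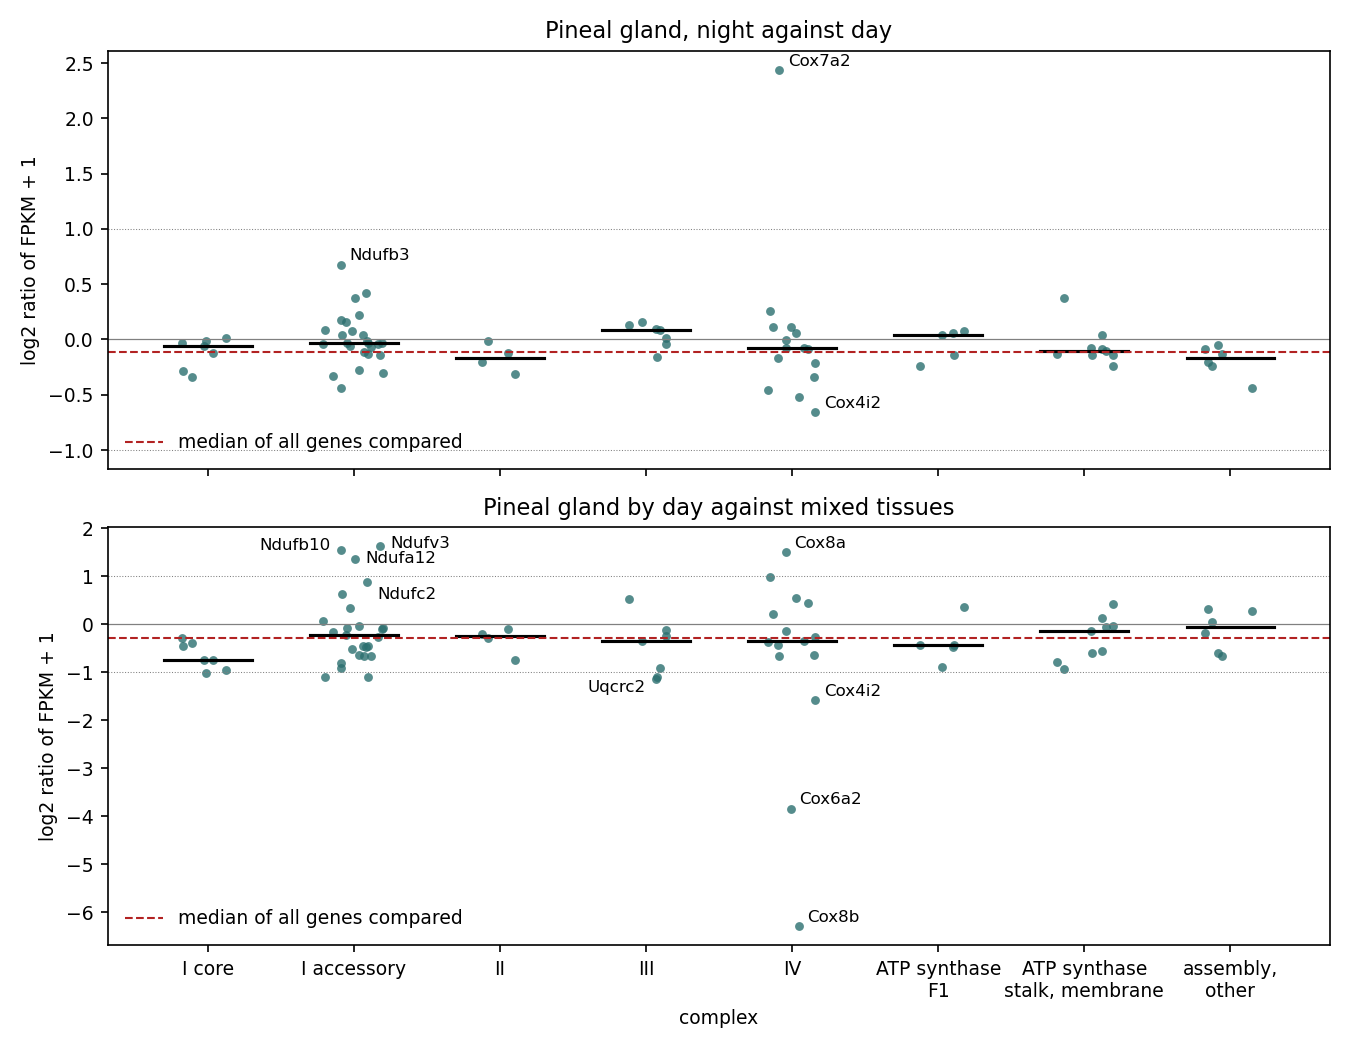
Log2 ratio of FPKM + 1 of each gene by complex, for night against day (top) and day against mixed tissues (bottom), with vertical scales of their own; each point is 1 gene, bars are group medians, the dashed line is the median of all genes compared and dotted lines mark 2-fold. Cox7a2 (2.44) stands alone above 2-fold in the top panel, and Cox6a2 (-3.84) and Cox8b (-6.29) stand far below the rest in the bottom panel.

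Marker lists of other cells were compared between the pineal libraries. The 3 fibroblast markers (Col1a1, Col3a1 and Dcn) summed to 107 FPKM by night and 152 FPKM by day, and the 2 astrocyte markers found (Gfap and Aqp4) to 9.68 FPKM by night and 19.3 FPKM by day, with none of the 5 at 0. Other lists were closer between the libraries. Red blood cell markers summed to 353 FPKM by night and 380 FPKM by day, and mural markers to 24.1 and 27.4 FPKM. Endothelial markers summed to 10.5 FPKM by night and 11.8 FPKM by day, with Cldn5 at 0 in both. For neurons, 2 of 3 markers were found (Snap25 and Syt1), with 1348 FPKM by night and 1318 FPKM by day. These 2 summed to 480 FPKM in the mixed tissues, and which pineal cells carry them was not tested. The part of these lists in the night to day ratios was not tested.

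Against the mixed tissues, the genes of the pineal gland by day were lower more often than higher. Of 78 genes, 59 were lower (75.6%, against 61.8% of all genes) and 19 higher (38.2% of all genes). With ratios centred on the median of all genes, which lay at -0.27, the split was 42 lower and 36 higher. The median ratio of the respiratory genes was -0.35, and among genes that reached 20 FPKM it was -0.34 over 65 genes, beside -0.07 for all 3469. Large differences were few: 4 genes were at least 2-fold higher (5.13%, against 8.32% of all genes) and 8 at least 2-fold lower (10.3%, against 28.9%).

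The lower genes included all 7 core subunits of complex I (61.8% of all genes were lower). Their sum was 393 FPKM by day against 622 FPKM in the mixed tissues, 0.632 times, with a median ratio of -0.74. Ndufv2, an iron-sulfur subunit next to the NADH site, had 67.8 FPKM by day and 137 FPKM in the mixed tissues, at least 2-fold lower. Ndufs3 had 35.8 FPKM by day and 70.2 FPKM in the mixed tissues (-0.95), and Ndufv1 49.2 FPKM by day and 83.4 FPKM in the mixed tissues (-0.75). The accessory subunits summed to 1957 FPKM by day and 1937 FPKM in the mixed tissues, and they spread in both directions.

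In the accessory part of complex I, 25 genes were compared between the pineal gland by day and the mixed tissues. Of these, 3 were at least 2-fold higher in the pineal gland (8.32% of all genes were). Ndufv3, a small subunit of the NADH-binding part (chr20:9951109-9960264), had 39.5 FPKM by night, 43.8 FPKM by day and 13.4 FPKM in the mixed tissues. Ndufb10 (chr10:13977307-13979468), of the membrane arm, had 203 FPKM by night, 275 FPKM by day and 92.6 FPKM in the mixed tissues, and Ndufa12 (chr7:31349357-31376151), of the arm in the matrix, 252 FPKM by night, 194 FPKM by day and 74.6 FPKM in the mixed tissues. Their day to mixed ratios were 1.63, 1.56 and 1.37, or 3.26, 2.97 and 2.60 times in FPKM, and both pineal libraries stood above the mixed tissues for each. RefSeq names 2 copies of Ndufv3 and 1 each of Ndufb10 and Ndufa12. Ndufc2, with no named copy, had 216 FPKM by night, 218 FPKM by day and 119 FPKM in the mixed tissues (0.87). In the other direction, Ndufa6 had 71.0 FPKM by night, 72.6 FPKM by day and 157 FPKM in the mixed tissues (-1.10) and Ndufb9 92.6 FPKM by night, 87.4 FPKM by day and 188 FPKM in the mixed tissues (-1.10).

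Complexes II and III summed to less than in the mixed tissues. By day, all 4 genes of complex II and 6 of 7 of complex III were lower (61.8% of all genes were). Their median ratios, -0.24 for complex II and -0.34 for complex III, lay near the -0.27 of all genes compared. Sdhd had 35.5 FPKM by night and 44.4 FPKM by day, against 74.5 FPKM in the mixed tissues, while the day levels of Sdha, Sdhb and Sdhc were within 1.25-fold of the mixed tissues, which had 120, 111 and 92.5 FPKM. Complex III summed to 0.666 times the mixed level by day. Uqcrc2 had 55.1 FPKM by night, 51.4 FPKM by day and 115 FPKM in the mixed tissues (-1.15 by day), and Uqcrfs1 52.6 FPKM by night, 58.7 FPKM by day and 127 FPKM in the mixed tissues (-1.11). Uqcrh, the hinge protein that binds cytochrome c1, was near the mixed level, with 185 FPKM by night, 183 FPKM by day and 199 FPKM in the mixed tissues. Uqcrb was the only gene of the complex above it, with 6.07 FPKM by night, 5.44 FPKM by day and 3.48 FPKM in the mixed tissues, but RefSeq names 4 copies of it.

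**Figure D4:**
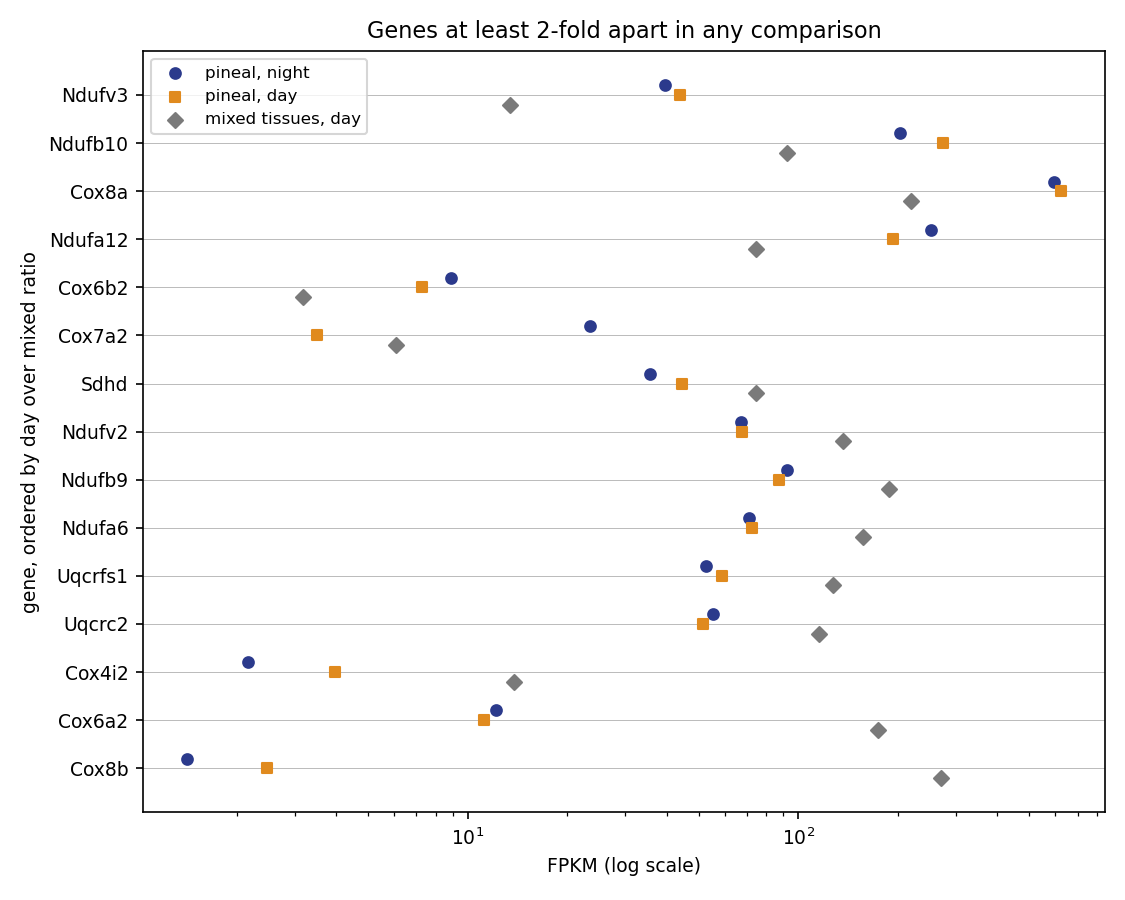
FPKM (log axis) of the 15 genes at least 2-fold apart in any of the 3 comparisons, with 1 row per gene and 1 symbol per library (pineal night, pineal day, mixed tissues), ordered by the day to mixed ratio. The pineal symbols lie together and away from the mixed tissues for most genes, whereas Cox7a2 has its night value (23.4 FPKM) away from the day (3.50 FPKM) and mixed (6.09 FPKM) values.

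Complex IV showed the sharpest contrast, between isoforms of the same subunit. Cox8b, the heart and skeletal muscle form of subunit 8 (chr1:201057314-201058774), had 1.41 FPKM by night, 2.47 FPKM by day and 271 FPKM in the mixed tissues, 110 times the day level. Its partner Cox8a, the widely expressed form (chr1:209886141-209888462), had 592 FPKM by night, 624 FPKM by day and 220 FPKM in the mixed tissues. Cox8a held 99.8% of the summed FPKM of the subunit 8 genes by night and 99.6% by day, against 44.8% in the mixed tissues. Cox8c, known from testis, was listed at 0 in all 3 libraries.

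Subunit 6a showed a like division at a different size. Cox6a2, the heart and skeletal muscle form (chr1:187464579-187465325), had 12.2 FPKM by night, 11.2 FPKM by day and 174 FPKM in the mixed tissues, 15.5 times the day level. These values sum 2 entries. The coding entry had 8.34 FPKM by night, 6.30 FPKM by day and 150 FPKM in the mixed tissues. The non-coding entry had 3.88 FPKM by night, 4.93 FPKM by day and 23.7 FPKM in the mixed tissues. Cox6a1 was at similar levels in all libraries, with 320 FPKM by night, 321 FPKM by day and 354 FPKM in the mixed tissues, and held 96.3% by night, 96.6% by day and 67.0% in the mixed tissues of the pair. For subunit 4, Cox4i1 held 99.5% by night and 99.1% by day, against 95.8% in the mixed tissues, where Cox4i2 had 13.8 FPKM. Cox6b2, a form of subunit 6b known from testis, had 8.91 FPKM by night, 7.30 FPKM by day and 3.18 FPKM in the mixed tissues, the highest in the pineal gland. No such shift was seen for subunit c of ATP synthase, where Atp5g3 held 75.4% by night, 76.4% by day and 79.6% in the mixed tissues, and Atp5g2 16.5% by night, 18% by day and 12.7% in the mixed tissues. Outside the rule, LOC688869, which carries the alias Cox6b1 and is described as similar to that subunit, had 2.26 FPKM by night, 1.70 FPKM by day and 3.10 FPKM in the mixed tissues. Cox7a1 and Ndufa4l2 are not analysed here.

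**Figure D5:**
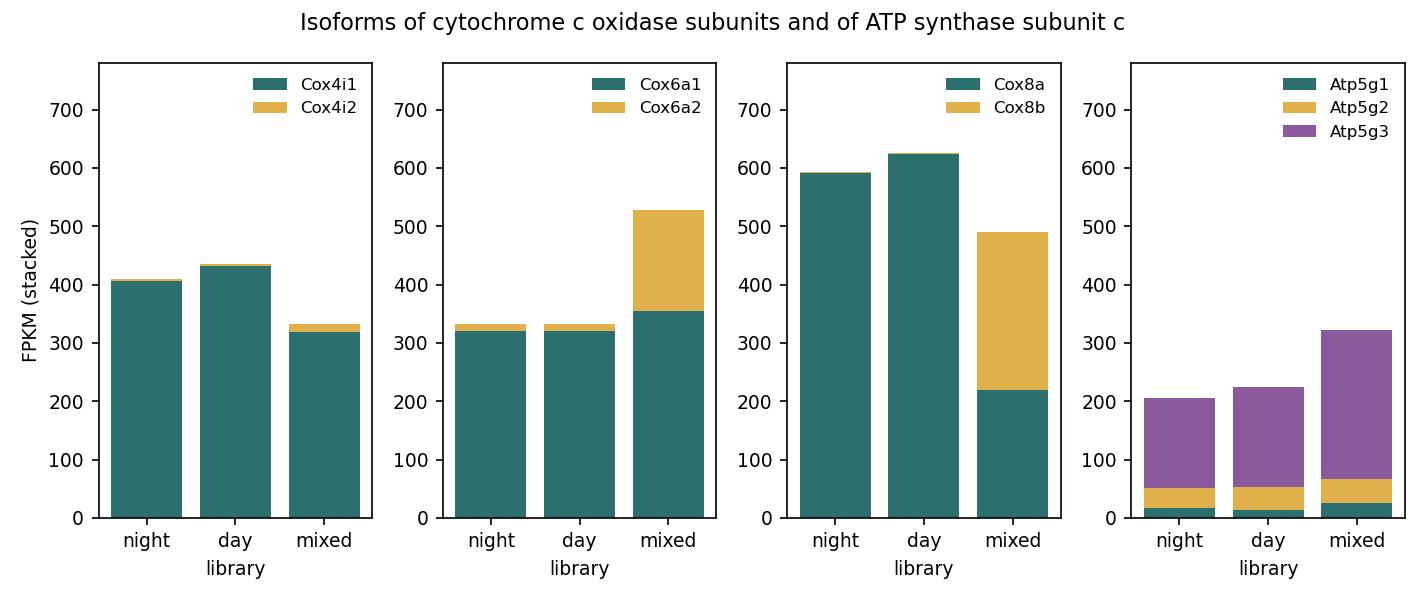
Stacked FPKM of the isoforms of complex IV subunits 4, 6a and 8 and of ATP synthase subunit c in the pineal night library, the pineal day library and the mixed tissues; each bar is 1 library. Cox8b and Cox6a2 are visible in the mixed tissues, at 271 and 174 FPKM, and hardly in the pineal libraries.

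Without Cox6a2 and Cox8b, complex IV summed to 2546 FPKM by night, 2614 FPKM by day and 2186 FPKM in the mixed tissues. Its day level was then 1.2 times the mixed level in place of 0.999 times. Both genes are far higher in the mixed tissues, so leaving them out had to raise this ratio. Cox8b held 55.2% of subunit 8 FPKM and Cox6a2 33.0% of subunit 6a FPKM there. By day they held 0.394% and 3.38%, so the 2 reduced sums do not cover these subunits alike. Heart and skeletal muscle are 2 of the 15 tissues of the pool. The 7 striated muscle markers (Acta1, Ckm, Myh6, Myh7, Tnnt2, Actc1 and Mb) were all below 1.1 FPKM in the pineal libraries, with Mb at 0 by night and Ckm at 0 by day, and each was at least 4-fold lower by day than in the mixed tissues (13.2% of all genes were). Their part in the other ratios was not tested.

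ATP synthase was lower in its F1 part, at 0.758 times the mixed level by day, and nearer to it in the stalk and membrane part, at 0.938 times. The gamma subunit gene Atp5c1 had 90.1 FPKM by night, 87.5 FPKM by day and 163 FPKM in the mixed tissues (-0.89 by day), and the peripheral stalk gene Atp5o 104 FPKM by night, 114 FPKM by day and 195 FPKM in the mixed tissues (-0.77). Atp5d, the delta subunit, was higher in the pineal gland, with 171 FPKM by night, 162 FPKM by day and 125 FPKM in the mixed tissues (0.37).

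Night against mixed gave values close to day against mixed, with the mixed library shared. There were 6 genes at least 2-fold higher by night (7.69%, against 8.99% of all genes) and 9 at least 2-fold lower (11.5%, against 31.2%). Beyond the genes above, Cox7a2 and Cox6b2 (1.25) were higher and Sdhd (-1.05) lower by night. The lowest ratios were those of Cox8b (-6.82), Cox6a2 (-3.73) and Cox4i2 (-2.23), the 3 genes at least 4-fold lower (14.4% of all genes). Cox4i2 was no longer 4-fold lower with a pseudocount of 5 (-1.39) or with ratios centred on the median of all genes (-1.86).

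Some members had little or no measured RNA. Ndufa10l1, whose model overlaps that of Ndufa10, Cox8c and the pseudogene Cox6c1 were listed at 0 in all libraries. Ndufs5, a complex I subunit with 2 named copies, had 0 FPKM by night, 0.321 FPKM by day and 0.648 FPKM in the mixed tissues. Of the 82 genes, 37 have named copies in RefSeq, 107 in all, and those 37 had a median of 75.3 FPKM by night, 84.7 FPKM by day and 95.2 FPKM in the mixed tissues, against 53.6 FPKM by night, 54.3 FPKM by day and 83.4 FPKM in the mixed tissues for the 45 without. The 45 without hold most of the assembly factors and other matches and the muscle isoforms Cox8b and Cox6a2, so the sets also differ in kind. The entry labelled Ndufs6, counted among the 45, now carries the gene ID of a pseudogene, Ndufs6-ps1, and spans 414 bp. It had 38.0 FPKM by night, 41.3 FPKM by day and 65.3 FPKM in the mixed tissues. LOC685322, also outside the rule and listed with the alias Ucrc and described as similar to a complex III protein, had 155 FPKM by night, 170 FPKM by day and 257 FPKM in the mixed tissues.

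The assembly factors lay below most subunits. Ndufaf1, Ndufaf3 and Ndufaf4, which help to build complex I, had 6.29, 14.8 and 3.05 FPKM by night, 8.90, 17.1 and 3.20 FPKM by day and 7.19, 13.5 and 5.32 FPKM in the mixed tissues. There are 6 pairs of genes within 250 kb of each other on rn4. The closest apart from the overlap of Ndufa10 and Ndufa10l1 are Cox4nb and Cox4i1 on chromosome 19, 147 bp apart, with 11.2 FPKM by night, 13.5 FPKM by day and 12.9 FPKM in the mixed tissues for Cox4nb and 407 FPKM by night, 431 FPKM by day and 318 FPKM in the mixed tissues for Cox4i1.

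Partner genes outside the rule were read from pathway lists. Of 11 genes for carriers and pores of the mitochondrial membranes, 6 were at least 2-fold lower by day than in the mixed tissues (28.9% of all genes were) and none at least 2-fold higher (8.32% of all genes). Slc25a4, an ADP/ATP carrier, had 188 FPKM by night, 190 FPKM by day and 473 FPKM in the mixed tissues, and Ckmt2, the creatine kinase of muscle mitochondria, was listed at 0 in both pineal libraries and had 84.8 FPKM in the mixed tissues. By night, 7 of the 8 compared were above their day level (38.2% of all genes were), none by 2-fold (4.18% of all genes). Slc25a3, the phosphate carrier, had 193 FPKM by night and 138 FPKM by day, and Ucp2, an uncoupling protein homologue, 47.2 FPKM by night and 26.7 FPKM by day.

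Genes of the mitochondrial ribosome, which translates the subunits encoded in mitochondrial DNA, had a median night to day ratio of -0.26, beside -0.11 for all genes. Of 65, 52 were lower (61.8% of all genes were) and 2 of them at least 2-fold lower (2.11% of all genes). The 2 were Mrpl49, with 29.9 FPKM by night and 72.6 FPKM by day, and Mrps27, with 9.11 FPKM by night and 22.6 FPKM by day. Against the mixed tissues, 4 of 66 were at least 2-fold higher by day (8.32% of all genes) and 4 at least 2-fold lower (28.9% of all genes).

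Among 16 regulators of mitochondrial biogenesis, levels reached at most 20.1 FPKM by night, 15.6 FPKM by day and 19.4 FPKM in the mixed tissues. None was 2-fold apart between night and day (4.18% of all genes were higher and 2.11% lower). Esrrg, a nuclear receptor known to act on respiratory genes in heart, had 20.1 FPKM by night, 15.6 FPKM by day and 7.20 FPKM in the mixed tissues. It was at least 2-fold higher by day than in the mixed tissues (8.32% of all genes were). Nrf1 had 4.11 FPKM by night, 4.20 FPKM by day and 4.07 FPKM in the mixed tissues, Gabpa 5.73 FPKM by night, 8.35 FPKM by day and 5.88 FPKM in the mixed tissues and Yy1 15.3 FPKM by night, 15.6 FPKM by day and 14.7 FPKM in the mixed tissues. Ppargc1a, a coactivator of biogenesis, had 0.89 FPKM by night, 2.04 FPKM by day and 4.59 FPKM in the mixed tissues. Cyc1, the cytochrome c1 of complex III, whose symbol the rule does not take, had 65.4 FPKM by night, 77.3 FPKM by day and 132 FPKM in the mixed tissues, a day to mixed ratio of -0.77 within a list of 7 mobile carriers and related genes with a median of -0.81. Lists of assembly factors covered complex I (4 genes compared), complexes II to IV (12 compared, of 25 listed) and ATP synthase (5 compared). They held no gene 2-fold apart between night and day or between day and mixed tissues. At that fold, 4.18% of all genes were higher and 2.11% lower by night than by day. By day against mixed tissues, 8.32% of all genes were higher and 28.9% lower. The import machinery likewise held none between night and day. Against the mixed tissues, 1 of its 8 genes was at least 2-fold lower by day (28.9% of all genes were). This was Hspe1, a chaperone of the matrix, with 41.8 FPKM by night, 33.3 FPKM by day and 87.7 FPKM in the mixed tissues.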

How the data were processed

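The authors deposited FPKM values, as the file headers name them, for 1 library per group. Per the labels' protocols, poly(A) RNA was fragmented and reverse transcribed from random primers. Per the submitters' processing notes, TopHat 1.3.1, Cufflinks 1.2.0 and the build rn4 were used. The sources used here do not give their options or the treatment of transcript length and of reads that map to several places, which matters for short transcripts and for genes with copies.

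Entries of one symbol were summed, as for 3 of the 82 genes. Ratios are log2 of FPKM + 1, taken where either library reached 1 FPKM, and their calculation was tested on simulated data. Whole-table shares stand beside member counts. Coordinates are rn4 with starts counted from 1. Promoter windows come from RefSeq (GRCr8), matched by gene ID for 69 of 82 genes. Named copies are other RefSeq entries named after the gene as pseudogenes or like genes. Genes named in full are the extremes of each comparison, the most abundant genes, isoforms and genes near 0. Members and lists were chosen with earlier results of these data known. Python 3.11.15, pandas 2.3.3 and numpy 2.4.6 were used.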

Additional observations from a re-analysis of the deposited data

How the results depend on the processing

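With 1 library per group no replicate could be left out. No paired analysis was possible because each group holds 1 library and no test was run. Medians and counts of genes at least 2-fold apart were recomputed with other pseudocounts (0.1 and 5), other filters, upper quartile scaling, the highest entry per gene, structural subunits only, genes without named copies and ratios centred on the median of all genes. A filter at 20 FPKM was added after the data were seen. Of 90 recomputed values 82 stayed within 1.5 times the main count or near the main median. Centring moved the median to -0.074 for day against mixed, 0.052 for night against day and -0.032 for night against mixed, and the count at least 2-fold lower to 3 for day against mixed and to 3 for night against mixed. Among the 42 genes compared without named copies, those at least 2-fold higher numbered 1 for day against mixed (Cox8a), 0 for night against day and 2 for night against mixed. The night to day ratio of Cox7a2, 2.44 with a pseudocount of 1, was 1.74 with a pseudocount of 5. With that pseudocount the night to day ratios of Ndufb3 (0.42) and Cox4i2 (-0.33) no longer reached 1.5-fold. Short transcripts, the lower depth of the night library and unreplicated libraries limit what these values show.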
